A study of Mus musculus with 24 samples.

Results

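The genes that build, crosslink and cut the extracellular matrix of brain vessels were followed in 24 RNA-seq libraries of APP/PS1 and wild-type mice. Members were chosen by name from the deposited table. They were the collagens, laminin chains, nidogens, matrix metalloproteinases, tissue inhibitors of metalloproteinases, ADAMTS proteases, ADAMTS-like proteins and lysyl oxidases, plus Hspg2, Agrn, Fn1, Sparc, Dcn, Lum, Bgn and Fbn1. The rule used no measured value. It matched 94 genes, of which 84 had values among the 13738 genes with values in the series. The other 10 (Adamts2, Adamts3, Adamtsl3, Col2a1, Col9a2, Mmp8, Mmp9, Mmp12, Mmp16 and Mmp24) were listed without values and were not analysed here.

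The 24 mice were 9 to 11 months old, with 6 of each sex and genotype, and the groups are called WT males, APP males, WT females and APP females. The APP mice carried the genotype that the labels give as APP/PS+, a transgenic model of familial Alzheimer's disease in which amyloid plaques form, and the WT mice carried none. In all groups brain vessel fragments were captured on CD31 beads, CD31 (Pecam1) being an adhesion molecule of endothelium, and their mRNA was sequenced. The values are CPM (the reads of a gene scaled to 1 common library total), from library totals of 52.39 to 75.93 M reads.

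The basement membrane is a thin protein sheet that wraps every brain capillary and lies between endothelial cells, pericytes and the end-feet of astrocytes. A collagen IV network and a laminin network form its scaffold, and nidogens and the heparan sulfate proteoglycans perlecan and agrin tie the networks together. Metalloproteinases and ADAMTS enzymes trim this matrix and the interstitial matrix of larger vessels, tissue inhibitors of metalloproteinases restrain them, and lysyl oxidases crosslink collagen and elastin.

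The libraries differed in ways the groups did not explain. The authors' column names for the libraries had either 1 to 2 digits (short names) or 4 digits (long names) after a letter. All 6 WT males, 4 APP males and 4 APP females had short names, and all 6 WT females, 2 APP males and 2 APP females had long names, so within WT the sex and the name style cannot be told apart. What the style stands for is not stated. Endothelial markers were high in every library (Pecam1 at 1230 to 1827 CPM, Cldn5 at 1216 to 2560 CPM), but genes of neighbouring cells were also read. Ttr, which epithelium of the choroid plexus makes, ran from 600 to 9340 CPM. In such bulk samples fewer cells of a type and less RNA per cell cannot be told apart. WT female 3 stood apart, with the lowest Bgn, Timp2, Adamtsl1 and Col4a6 of its group and 41.2 CPM of Col1a1 where the other libraries had 2.06 to 11.8. Values without it are given beside the genes it moved most.

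The members spanned a wide range of abundance. Fn1 (fibronectin) had the highest level per length, 315 CPM per kb of merged exon averaged over the 24 libraries. Sparc, a collagen-binding glycoprotein that endothelial cells release, had 307, the protease gene Adamts1 247, the inhibitor gene Timp3 204 and the laminin chain gene Lamb2 194 CPM per kb. Col4a1 (144) and Col4a2 (120) were close to Agrn (117), while the other collagen IV genes lay between 0.592 and 2.09 CPM per kb. The fibrillar collagens, which make the thick fibres of connective tissue, reached at most 7.28 CPM per kb (Col27a1), and Col1a1 had 1.22. The lowest member was Col12a1 at 0.107 CPM per kb.

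**Figure D1:**
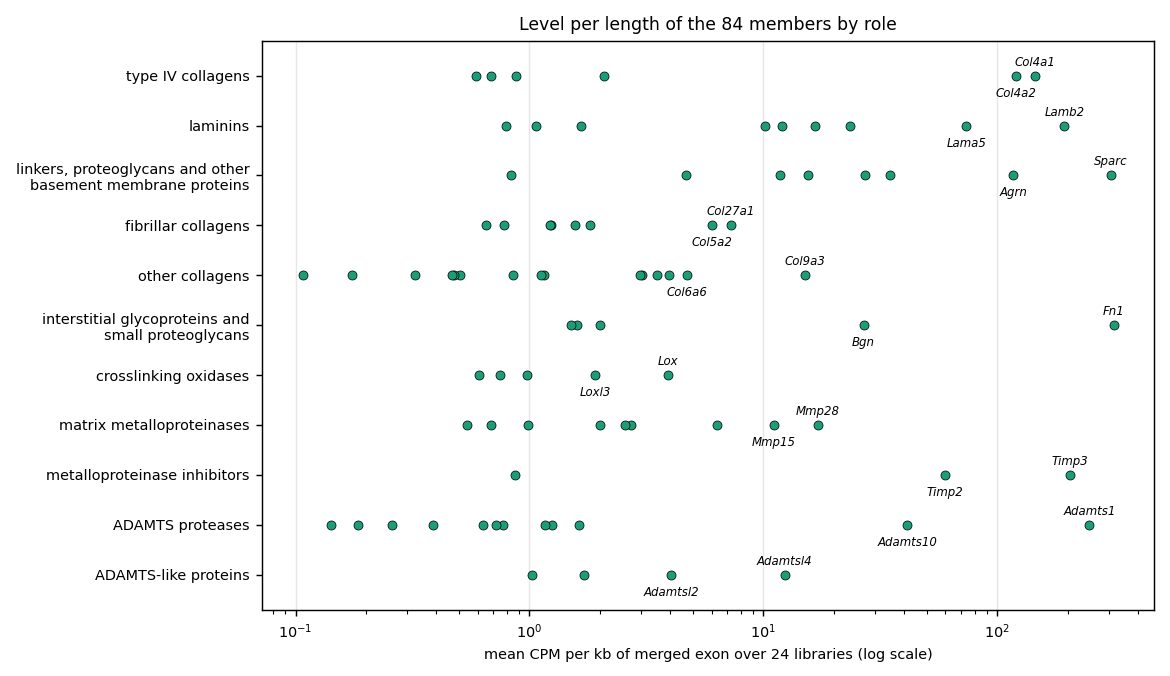
Mean CPM per kb of merged exon over the 24 libraries for the 84 members, on a log axis, with 1 point per gene and 1 row per role. The 2 highest genes of each role are named; Fn1, Sparc, Adamts1, Timp3 and Lamb2 are above 190 CPM per kb, and every fibrillar collagen is below 8.

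APP was compared with WT first with the sexes averaged, then in each sex, by limma on log2(CPM + 1), with Benjamini-Hochberg adjustment over all 13738 genes and a call at an adjusted p under 0.05. Log2 fold changes below are on that scale. With the sexes averaged, 14 members were lower in APP, where 7.32% of all genes were, and 4 were higher, where 4.78% of all genes were. In males 22 members were lower (9.19% of all genes) and 1 was higher (5.12%). In females none was lower (2.95% of all genes) and 5 were higher (2.42%). Beside that limma count of 0 in females, 11 members were lower and 15 higher at an unadjusted p under 0.05, and DESeq2 and edgeR on reads recovered from the CPM values called 3 and 1 lower. The median log2 fold change over the 84 members was -0.11 with the sexes averaged, -0.22 in males and 0.03 in females, against -0.01, -0.02 and 0.01 over all genes. Between them the 3 comparisons called 31 of the 84 members, and 53 were called in none.

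In males every APP library lay below every WT library for 8 members, which 1.96% of all genes did: Col4a1, Col4a2, Col4a3, Col4a4, Col11a2, Mmp15, Timp4 and Adamtsl1. No member lay above in that way in males, where 1.51% of all genes did. In females the libraries separated for Timp3, with APP below, and for Mmp11, with APP above; 2.33% and 1.47% of all genes separated in those directions.

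**Figure D2:**
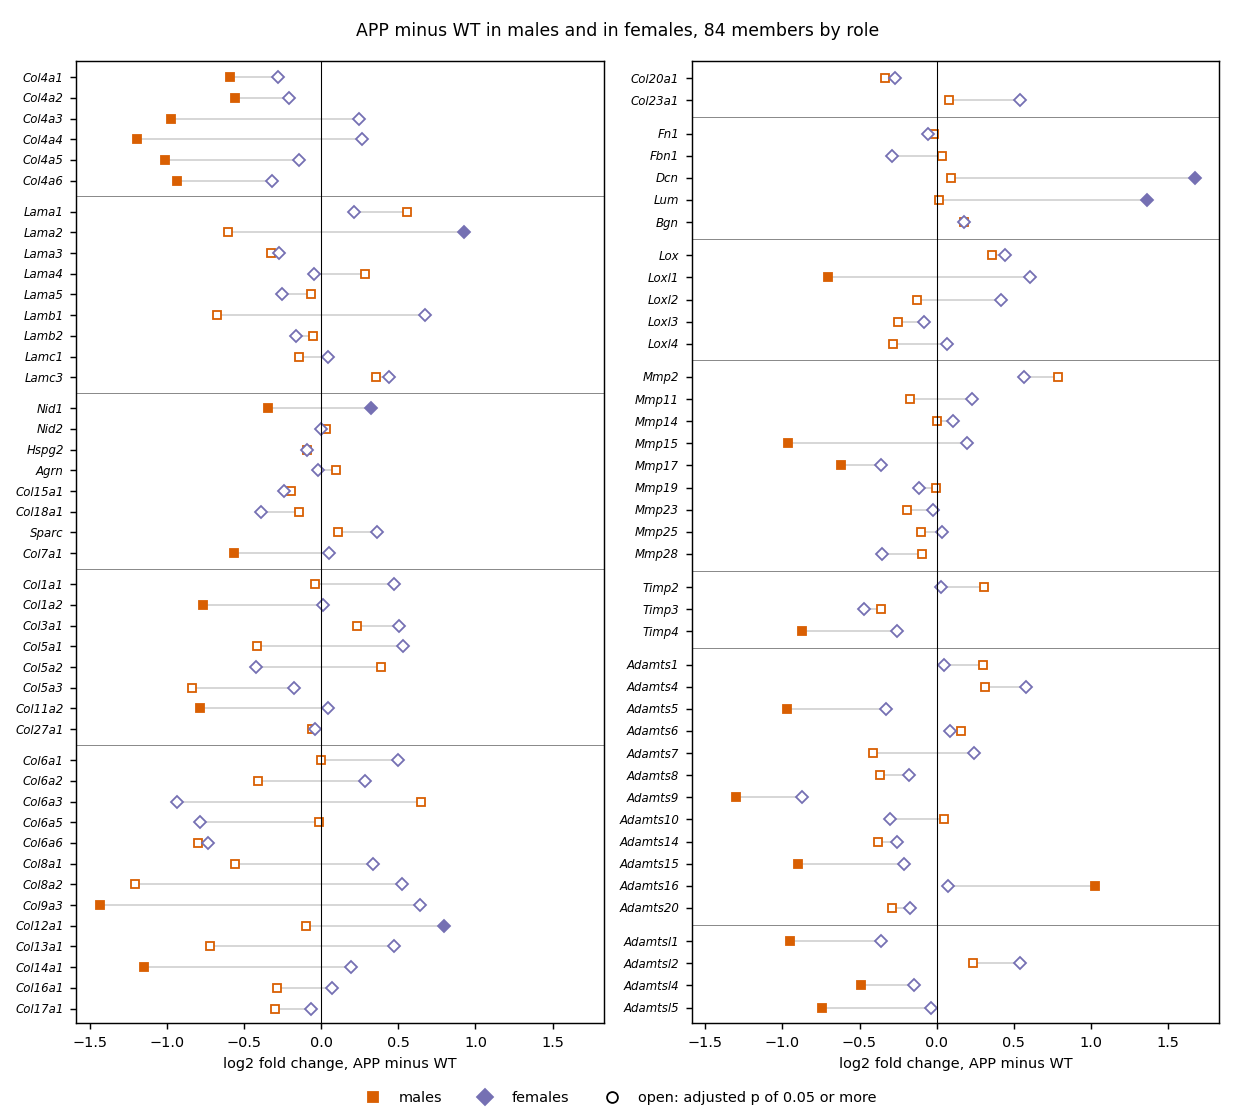
Log2 fold change of APP minus WT in males (squares) and in females (diamonds) for the 84 members, grouped by role between the horizontal lines; filled symbols passed an adjusted p of 0.05. The 6 collagen IV genes are filled on the left of 0 in males, and the filled female symbols are Lama2, Nid1, Col12a1, Dcn and Lum, all on the right.

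All 6 collagen IV genes fell in males (9.19% of all genes) and 4 of the 6 fell with the sexes averaged (7.32%). In females none was called by limma, and 2 had an unadjusted p under 0.05. These genes lie in head-to-head pairs that are read in opposite directions from a shared stretch of DNA. The first bases of Col4a1 (chromosome 8, 11198423 to 11312826, minus strand) and Col4a2 (11312805 to 11449287, plus strand) are 21 bases apart in the GENCODE annotation of mm10. Those of Col4a3 and Col4a4 on chromosome 1 are 72 bases apart, and those of Col4a5 and Col4a6 on the X chromosome 1309 bases apart. The stretches outside annotated exons next to the starts are shown to describe the pairs. All 6 genes fell in males, within and across the pairs, and a part of these stretches in that fall was not tested. The stretches come from the RefSeq promoter windows of GRCm38.p6. Capitals mark a CCAAT box or a GC box (GGGCGG, or CCGCCC when read from the other strand). The Col4a4 stretch holds all the bases between the Col4a3 and Col4a4 starts.
Col4a4, chr1:82586850-82586920, minus strand: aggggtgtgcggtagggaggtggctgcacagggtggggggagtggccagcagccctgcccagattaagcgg
Col4a5, chrX:141475169-141475384, plus strand: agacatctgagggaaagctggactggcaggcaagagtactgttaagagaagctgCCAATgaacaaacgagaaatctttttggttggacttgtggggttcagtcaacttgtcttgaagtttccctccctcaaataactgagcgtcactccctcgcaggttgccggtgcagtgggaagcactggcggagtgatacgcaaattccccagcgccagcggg
Col4a6, chrX:141474077-141474326, minus strand: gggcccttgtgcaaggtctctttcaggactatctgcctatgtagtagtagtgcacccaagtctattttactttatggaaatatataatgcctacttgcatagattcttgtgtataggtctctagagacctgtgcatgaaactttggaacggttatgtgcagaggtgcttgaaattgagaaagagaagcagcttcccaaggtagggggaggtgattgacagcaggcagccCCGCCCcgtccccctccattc

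The printed Col4a5 stretch holds a CCAAT box 192 bases before the RefSeq start, and a GC box 25 bases before the start lies in an annotated exon and is not printed. The printed Col4a6 stretch holds a GC box 16 bases before the start. The Col4a4 stretch holds neither, nor TATAAA. The 300-base windows of Col4a1 and Col4a2 lie wholly in annotated exons and are not printed. A CCAAT box was found in them 141 bases before the Col4a1 start and 28 bases before the Col4a2 start, and both hold GC boxes. Over both strands, 37.4% of all 32851 windows of 300 bases hold CCAAT, 35.7% hold GGGCGG and 13.6% hold TATAAA. Among the 57 windows of 53 members, 14, 44 and 6 did.

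Col4a1 and Col4a2 encode the collagen IV chains found in nearly all basement membranes, those of brain vessels included. Col4a1 (Entrez 12826) was at 1124 to 1450 CPM in WT males (median 1343) and at 790 to 959 in APP males (median 855). It was at 995 to 1343 CPM in WT females (median 1178) and at 772 to 1155 in APP females (median 989). The male groups did not overlap, and both long-named APP males, at 790 and 959 CPM, were also below every WT male; the female groups overlapped. Col4a1 fell by 0.43 with the sexes averaged (SE 0.07, adjusted p = 0.00032) and by 0.59 in males (SE 0.10, adjusted p = 0.00071). In females the log2 fold change was -0.28 (SE 0.10, adjusted p = 0.095), and with name style as a term in the fit it was -0.16 (adjusted p = 0.54). Against the WT females, all long-named, the 4 short-named APP females gave -0.38 (adjusted p = 0.022) and the 2 long-named ones -0.07 (adjusted p = 0.90).

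Col4a2 followed the same order. Its lowest, median and highest values were 792, 1000 and 1129 CPM in WT males and 586, 682 and 701 in APP males. They were 768, 808 and 893 CPM in WT females and 587, 711 and 837 in APP females. The male groups again did not overlap. Col4a2 fell by 0.38 with the sexes averaged (SE 0.07, adjusted p = 0.00078) and by 0.56 in males (SE 0.10, adjusted p = 0.00096). In females the difference was -0.21 (SE 0.10, adjusted p = 0.20). The averaged and male calls of both genes stood with any 1 of the 24 libraries left out. They also stood among short-named males alone (Col4a1 -0.60, adjusted p = 0.0023; Col4a2 -0.49, adjusted p = 0.01) and with the 4 short-named APP males left out (-0.57, adjusted p = 0.029; -0.68, adjusted p = 0.0099).

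Col4a3 and Col4a4 encode chains of the collagen IV network best known from the kidney filter, inner ear and eye. Col4a3 ran from 10.1 to 18.0 CPM in WT males (median 12.04) and from 2.37 to 7.99 in APP males (median 6.53). In WT females it ran from 4.08 to 9.96 CPM (median 7.16) and in APP females from 4.22 to 14.9 (median 8.62). Every APP male was below every WT male, while the female groups overlapped almost fully. The fall in males was 0.98 for Col4a3 (SE 0.25, adjusted p = 0.013) and 1.20 for Col4a4 (SE 0.28, adjusted p = 0.0061), and the females gave 0.24 (adjusted p = 0.62) and 0.27 (adjusted p = 0.61). Col4a4 was at 1.32 to 5.59 CPM in APP males against 6.25 to 11.3 in WT males. Without the 4 short-named APP males the values were -0.61 (adjusted p = 0.26) and -0.94 (adjusted p = 0.12), and the calls ended. Choroid plexus markers moved with this pair in males, as given with the marker lists below; their part was not tested.

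Col4a5 and Col4a6, the X-linked pair, encode chains that smooth muscle and epithelium add to their basement membranes. Col4a5 was at 13.0 to 25.9 CPM in WT males (median 21.8) and at 5.17 to 15.9 in APP males (median 9.15). WT females had 5.12 to 17.5 CPM (median 14.4) and APP females 9.04 to 13.6 (median 11.4). The low WT female value of 5.12 CPM was WT female 3; the other 5 were at 13.1 CPM or more. With the sexes averaged Col4a5 fell by 0.58 (SE 0.17, adjusted p = 0.03) and Col4a6 by 0.63 (SE 0.16, adjusted p = 0.012); without WT female 3 they fell by 0.69 (adjusted p = 0.0022) and 0.70 (adjusted p = 0.0038). In males they fell by 1.01 (adjusted p = 0.0079) and 0.93 (adjusted p = 0.0083). The averaged call of Col4a5 was lost in 6 of the 24 fits that left out 1 library, at adjusted p of 0.05 to 0.054 (without APP male 2, APP female 4, WT male 3, WT male 4, WT female 1 or WT female 2), and the Col4a6 call in none. With name style as a term the averaged Col4a5 value was -0.54 and no longer called (adjusted p = 0.054). Smooth muscle markers were lower in APP too (10 of 11 called), and their part in these values was not tested.

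**Figure D3:**
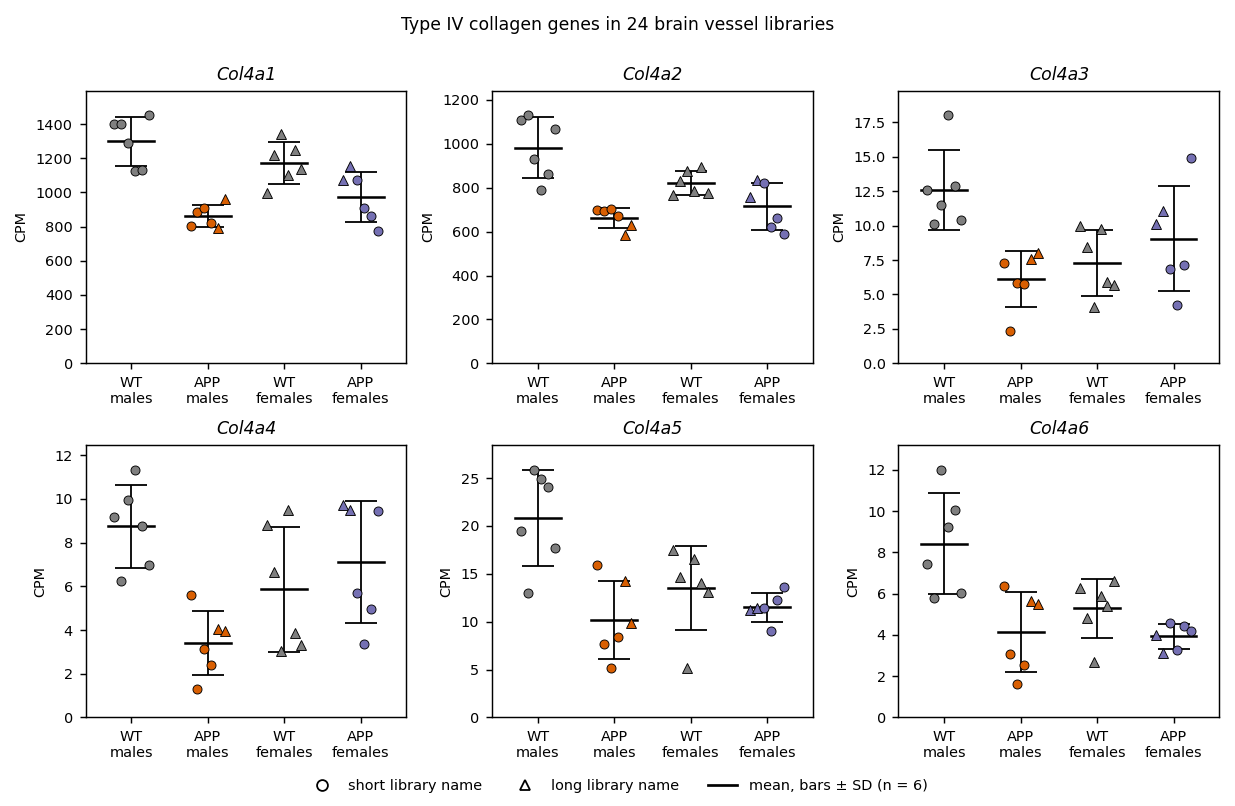
CPM of the 6 collagen IV genes in each library, by group, with the mean and SD of 6 mice; circles are short-named and triangles long-named libraries. For Col4a1, Col4a2, Col4a3 and Col4a4 the highest APP male is below the lowest WT male, and the female groups overlap in every panel.

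The laminins are trimers of an alpha, a beta and a gamma chain. Of 9 chain genes, 1 fell with the sexes averaged (7.32% of all genes) and 1 rose in females (2.42%). None was called in males (9.19% of all genes were lower and 5.12% higher), where 5 had an unadjusted p under 0.05. The averaged median was 0.00, with 4 values positive and 5 negative. None of the abundant endothelial chains was called in these comparisons. Lama5 was at 552 to 957 CPM in APP males and 612 to 899 in WT males (-0.06, adjusted p = 0.79), and at 650 to 950 against 900 to 1094 CPM in females (-0.25, SE 0.12, adjusted p = 0.24). Lama4, the other endothelial alpha chain, gave 0.12 with the sexes averaged (SE 0.11, adjusted p = 0.52), Lamb2 -0.11 (SE 0.07, adjusted p = 0.35) and Lamc1 -0.05 (SE 0.05, adjusted p = 0.56). On the log2 scale the 95% interval reached 0.10 on either side of the estimate for Lamc1 and 0.15 for Lamb2. Against WT males, Lama4 gave 0.51 in the long-named APP males (adjusted p = 0.0503) and 0.17 in the short-named ones (adjusted p = 0.62). Against WT females, Lama5 gave -0.37 in the short-named APP females (adjusted p = 0.088) and -0.02 in the long-named ones (adjusted p = 0.96). Lama3, the alpha chain of epithelial anchoring laminin, fell by 0.30 (SE 0.09, adjusted p = 0.024), from 142 ± 22.8 to 115 ± 15.9 CPM (SD, n = 12 each), and was named after its value was seen. By edgeR on recovered reads Lama3 was not called (-0.29, adjusted p = 0.051).

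Lama2 and Lamb1 had estimates of opposite sign in the sexes, of which only that of Lama2 in females was called. Lama2 encodes the alpha chain of muscle, perivascular and astrocyte-side laminin. It was at 5.50 to 12.2 CPM in WT females (median 8.87) and 11.99 to 22.6 in APP females (median 17.5). In WT males it was at 11.9 to 21.8 CPM (median 14.7) and in APP males at 5.10 to 13.7 (median 10.9). The female groups overlapped only between 11.99 and 12.2 CPM. Lama2 rose by 0.93 in females (SE 0.21, adjusted p = 0.013), and males gave -0.60 (SE 0.21, adjusted p = 0.058). The female call ended with name style as a term (0.95, adjusted p = 0.11) and within long names (0.69, adjusted p = 0.44). The sexes differed by 1.53 (SE 0.30, adjusted p = 0.0095), and that call stood with any 1 library left out. Lamb1 had 0.67 in females and -0.68 in males, neither called (adjusted p = 0.11 and 0.07), with a sex difference of 1.35 (SE 0.35, adjusted p = 0.025) that was lost without APP female 6 or WT female 6 (adjusted p = 0.05 each). The low-expressed Lama1 gave 0.39 with the sexes averaged (adjusted p = 0.063). Lamc3 ran from 134 to 226 CPM in APP males with short names and from 59.96 to 63.0 in those with long ones. In limma fits against WT males it was called higher in the short-named APP males (0.84, adjusted p = 0.032). The long-named ones gave -0.62 (adjusted p = 0.14). Lamc3 is also given with the library names below.

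Among the linkers and proteoglycans none of 8 genes was called by limma with the sexes averaged (7.32% of all genes were lower and 4.78% higher). Of the 8, 3 had an unadjusted p under 0.05. Hspg2, which encodes perlecan, had 480 ± 74.0 CPM in the 12 APP libraries and 511 ± 67.1 in the 12 WT libraries (SD; -0.09, SE 0.09, adjusted p = 0.53). Agrn (agrin) had 1096 ± 117 and 1073 ± 155 CPM (0.04, SE 0.07, adjusted p = 0.76), and Nid2 at 80.5 ± 10.1 and 79.8 ± 11.0 (0.02, SE 0.06, adjusted p = 0.91). Col18a1, the precursor of endostatin, gave -0.27 (SE 0.11, adjusted p = 0.12) and Col15a1 -0.22 (SE 0.16, adjusted p = 0.40). By edgeR on recovered reads Sparc was called higher with the sexes averaged (0.27, adjusted p = 0.043). In limma fits against WT females, Sparc gave 0.52 in the short-named APP females (adjusted p = 0.004) and 0.03 in the long-named ones (adjusted p = 0.96). The 95% intervals of the averaged difference reached 0.13 on either side of the estimate for Nid2, 0.14 for Agrn and 0.18 for Hspg2.

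Nid1, the nidogen that bridges laminin and collagen IV, was the only gene of this role called in both sexes, with opposite changes. WT males had 78.0 to 105 CPM (median 92.8) and APP males 63.5 to 83.8 (median 72.7). WT females had 60.4 to 84.3 CPM (median 69.5) and APP females 80.1 to 97.1 (median 91.2). The APP males and WT females thus shared the low range, and the APP females and WT males the high one, with little overlap within a sex. Nid1 fell by 0.34 in males (SE 0.09, adjusted p = 0.0096) and rose by 0.32 in females (SE 0.09, adjusted p = 0.03). The sexes differed by 0.66 (SE 0.12, adjusted p = 0.0064), also with any 1 library left out. The female call alone was lost in 7 of the 24 fits without 1 library (adjusted p up to 0.071; without APP female 3, 4 or 6, or WT female 2, 3, 4 or 6), with name style as a term (0.36, adjusted p = 0.13) and within long names (0.28, adjusted p = 0.55). Col7a1, the anchoring fibril collagen, fell by 0.56 in males (adjusted p = 0.02; 0.059 without APP male 2 and 0.05 without WT male 6).

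The fibrillar collagens and the other collagens gave no limma call with the sexes averaged (7.32% of all genes were lower and 4.78% higher). There 3 of 8 and 5 of 15 had an unadjusted p under 0.05. In males Col1a2 (type I collagen) fell by 0.77 (SE 0.18, adjusted p = 0.0078), Col11a2 by 0.78 (SE 0.20, adjusted p = 0.013), Col14a1, a fibril-associated collagen, by 1.15 (SE 0.31, adjusted p = 0.016) and Col9a3 by 1.43 (SE 0.43, adjusted p = 0.03). Col9a3 was at 9.21 to 64.5 CPM in APP males and 41.6 to 99.8 in WT males, and its range in females was also wide, 16.6 to 118. The male call of Col9a3 was lost in 6 of 24 fits without 1 library (adjusted p up to 0.086; without APP male 2 or 4, or WT male 1, 3, 4 or 6). Col1a1 and Col3a1, the other main chains of connective tissue, gave 0.22 (adjusted p = 0.70) and 0.37 (adjusted p = 0.28) with the sexes averaged. Without WT female 3 Col1a1 gave 0.47 (adjusted p = 0.13) with the sexes averaged and 0.98 in females (adjusted p = 0.054), where all libraries gave 0.47 (adjusted p = 0.56).

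In females Col12a1, a fibril-associated collagen at the lowest level per length of all members, rose by 0.79 (SE 0.18, adjusted p = 0.012), from 0.437 to 1.31 CPM in WT females to 1.03 to 3.93 in APP females. With name style as a term the value was 0.58 (adjusted p = 0.23). At these levels the value added before the log keeps the fold change small. Col6a3, an alpha chain of the beaded filaments of collagen VI, went the other way from most collagens. It was at 9.87 to 27.9 CPM in WT females (median 11.3) and 5.10 to 11.2 in APP females (median 6.35), and at 4.08 to 10.4 in WT males (median 6.76) and 4.30 to 17.1 in APP males (median 12.1). Neither sex was called (-0.94, adjusted p = 0.052 in females; 0.65, adjusted p = 0.13 in males), and the sexes differed by -1.59 (SE 0.40, adjusted p = 0.022). With the name style as a term in the fit that difference was not called (-1.52, adjusted p = 0.073).

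The small proteoglycans decorin and lumican, which fibroblasts make to coat collagen fibrils, rose in females. Dcn was at 2.29 to 5.82 CPM in WT females (median 4.14) and 4.17 to 40.7 in APP females (median 14.5). WT males had 3.64 to 10.2 CPM (median 7.24) and APP males 3.25 to 19.3 (median 6.21). APP female 6 was the highest of all and APP female 1 was inside the WT range. Dcn rose by 1.68 in females (SE 0.40, adjusted p = 0.017) and by 0.88 with the sexes averaged (SE 0.28, adjusted p = 0.043), and males gave 0.09 (adjusted p = 0.91). Lum rose by 1.37 in females (SE 0.39, adjusted p = 0.041). The averaged call of Dcn was lost in 14 of 24 fits without 1 library, reaching an adjusted p of 0.075 without APP male 1, and the Lum call in 9, reaching 0.10 without APP female 6 or WT female 6. With name style as a term the female values were 0.97 for Dcn (adjusted p = 0.33) and 0.80 for Lum (adjusted p = 0.43), and the averaged Dcn value was 0.71 (adjusted p = 0.08). Among long-named females alone, 2 APP against 6 WT, the values were 0.80 (adjusted p = 0.60) and 1.095 (adjusted p = 0.54). Of the 12 fibroblast markers measured, 2 were called higher in females. In males 5 were called lower (median of the 12 -0.39), where neither Dcn nor Lum was called. The part of these markers was not tested. Fn1, Fbn1 (fibrillin of the elastic microfibrils) and Bgn were not called in any of the 3 comparisons. Fn1 had 3661 ± 793 CPM over the 12 APP libraries and 3694 ± 467 over the 12 WT libraries (SD). In limma fits against WT males, Fn1 gave -0.57 in the long-named APP males (adjusted p = 0.052) and 0.26 in the short-named ones (adjusted p = 0.30).

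Of the lysyl oxidases, Loxl1, which crosslinks elastin, was called. It fell by 0.71 in males (SE 0.22, adjusted p = 0.036), from a median of 3.59 CPM in WT to 1.74 in APP, and gave 0.60 in females (adjusted p = 0.11). The sexes differed by 1.31 (SE 0.32, adjusted p = 0.019), also with any 1 library left out, while the male call was lost in 6 of 24 such fits (adjusted p up to 0.09; without APP male 2, 4 or 6, or WT male 3, 4 or 6). Lox gave 0.40 with the sexes averaged (SE 0.15, adjusted p = 0.075).

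Of 9 matrix metalloproteinases, 1 rose (4.78% of all genes) and 2 fell (7.32%) with the sexes averaged. Mmp15, a membrane-type metalloproteinase, was at 59.2 to 89.7 CPM in WT males (median 74.2) and 31.6 to 46.2 in APP males (median 35.4). WT females had 37.7 to 104 CPM (median 54.1) and APP females 53.6 to 80.9 (median 64.8). All 6 APP males were below every WT male and also below every APP female, and the highest WT female was WT female 3. Mmp15 fell by 0.96 in males (SE 0.17, adjusted p = 0.0013) and gave 0.19 in females (SE 0.17, adjusted p = 0.55), a sex difference of 1.16 (SE 0.24, adjusted p = 0.012) that stood with any 1 library left out. Without WT female 3 the female value was 0.36 (adjusted p = 0.13). With the sexes averaged Mmp15 fell by 0.38 (adjusted p = 0.041), a call lost in 13 of 24 such fits (adjusted p up to 0.076, without APP female 4) and also under TMM scaling (adjusted p = 0.052) and with name style as a term (-0.33, adjusted p = 0.081). Mmp17, another membrane-bound member, fell by 0.49 with the sexes averaged (SE 0.11, adjusted p = 0.0064) and by 0.62 in males (adjusted p = 0.013).

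Mmp2, the gelatinase that cuts collagen IV, rose by 0.68 with the sexes averaged (SE 0.21, adjusted p = 0.033). Its values were 14.9 to 22.1 CPM in WT males and 13.9 to 65.7 in APP males, and 8.71 to 16.5 in WT females and 11.7 to 25.8 in APP females. APP males 1, 2 and 4, all short-named, were at 65.7, 43.1 and 51.5 CPM, and the other 3 APP males were at 13.9 to 21.4. Within short names Mmp2 rose by 1.17 (SE 0.29, adjusted p = 0.016), and the 2 long-named APP males against WT males gave 0.02 (adjusted p = 0.97). The averaged call was lost in 9 of 24 fits without 1 library, at adjusted p up to 0.061 (without APP male 2 or 4), and with the name style as a term (0.52, adjusted p = 0.052). Mmp14, the membrane enzyme that activates the Mmp2 product, gave 0.05 (SE 0.14, adjusted p = 0.85).

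Of the 3 measured tissue inhibitors of metalloproteinases, 2 fell with the sexes averaged (7.32% of all genes). Timp3, which binds to the matrix and also inhibits ADAMTS enzymes, was among the most abundant members. WT males had 2051 to 2616 CPM (median 2218) and APP males 1166 to 2582 (median 1679); WT females had 1222 to 1831 (median 1433) and APP females 860 to 1208 (median 1060). All 6 APP females were below every WT female. In males only APP males 2 and 4 reached the WT range, at 2518 and 2582 CPM. Timp3 fell by 0.42 (SE 0.11, adjusted p = 0.014), with -0.36 in males (adjusted p = 0.12) and -0.47 in females (adjusted p = 0.07), neither called alone. Against WT males Timp3 fell by 0.81 in the 2 long-named APP males (adjusted p = 0.0045), and the 4 short-named ones gave -0.14 (adjusted p = 0.61).

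Timp4, a low-expressed inhibitor, was at 6.62 to 11.8 CPM in WT males and 2.56 to 5.83 in APP males, with no overlap, and at 3.86 to 5.48 and 2.32 to 7.57 in females. It fell by 0.56 with the sexes averaged (SE 0.15, adjusted p = 0.014) and by 0.87 in males (SE 0.21, adjusted p = 0.0078). Timp2 gave 0.17 with the sexes averaged (SE 0.08, adjusted p = 0.19). The averaged calls of Timp3 and Timp4 stood with any 1 library left out.

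ADAMTS enzymes are secreted proteases that cut proteoglycans and other matrix proteins. Of 12, 3 fell (7.32% of all genes) and 2 rose (4.78%) with the sexes averaged. Adamts9, a versican-cutting protease of vessels, had the largest fall of all members with the sexes averaged, 1.09 (SE 0.20, adjusted p = 0.0011). Its values were 14.5 to 49.9 CPM in WT males (median 41.4) and 8.01 to 18.4 in APP males (median 13.3). WT females had 12.6 to 23.9 CPM (median 16.3) and APP females 6.17 to 15.8 (median 7.81). WT males 3 to 6 stood at 34.8 CPM or more, above all other libraries, and WT males 1 and 2 were at 14.5 and 18.1, within the APP male range. In males it fell by 1.30 (SE 0.28, adjusted p = 0.0042); females gave -0.87 (SE 0.28, adjusted p = 0.069). Against the long-named WT females the 4 short-named APP females gave -1.18 (adjusted p = 0.014) and the 2 long-named ones -0.26 (adjusted p = 0.76), and with name style as a term the female value was -0.38 (adjusted p = 0.60).

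Adamts5 and Adamts15, both cutters of aggrecan-type proteoglycans, fell by 0.65 (SE 0.15, adjusted p = 0.0063) and 0.56 (SE 0.15, adjusted p = 0.019). Adamts5 was at 1.13 to 3.39 CPM in APP males and 2.82 to 7.59 in WT males, and at 1.39 to 2.03 against 1.14 to 4.48 in females. Adamts16 was the only member called higher in males, by 1.03 (SE 0.22, adjusted p = 0.0038). It was at 3.01 to 11.5 CPM in APP males (median 5.95) and 1.82 to 3.86 in WT males (median 2.66), while WT females at 2.75 to 7.55 and APP females at 3.79 to 6.09 overlapped (0.07, adjusted p = 0.88). Only APP male 3, at 3.01 CPM, was inside the WT male range. Adamts16 rose by 0.85 among short-named males (adjusted p = 0.028) and was higher by 1.38 with only the long-named APP males (adjusted p = 0.0057). With the sexes averaged it rose by 0.55 (adjusted p = 0.023). Adamts4 rose by 0.45 (SE 0.14, adjusted p = 0.039), a call lost in 13 of 24 fits without 1 library (adjusted p up to 0.073, without WT female 2) and with name style as a term (0.34, adjusted p = 0.059).

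Adamts1, the most abundant protease of the family and an early-response gene of endothelium, was at 976 to 2014 CPM in APP males and 1062 to 1361 in WT males (0.17 with the sexes averaged, SE 0.13, adjusted p = 0.40). The 4 short-named APP males, at 1334 to 2014 CPM, held the high values, and among short-named males it rose by 0.53 (adjusted p = 0.014). Adamts10, which binds fibrillin, gave -0.13 (adjusted p = 0.30).

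The ADAMTS-like proteins lack the protease domain and sit on microfibrils. Adamtsl1 fell by 0.66 with the sexes averaged (SE 0.14, adjusted p = 0.0034). It was at 27.1 to 42.6 CPM in WT males and 12.6 to 23.8 in APP males, with no overlap, and at 8.25 to 26.1 in WT females and 12.9 to 17.5 in APP females. The 8.25 CPM was WT female 3; without it the averaged fall was 0.77 (adjusted p = 1.2e-05) and the female value, -0.36 with all libraries (adjusted p = 0.29), was -0.60 (adjusted p = 0.013). Adamtsl4 fell by 0.32 with the sexes averaged (SE 0.08, adjusted p = 0.015) and by 0.49 in males, and Adamtsl5 by 0.74 in males (adjusted p = 0.0092). Adamtsl2 gave 0.39 with the sexes averaged (adjusted p = 0.056).

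**Figure D4:**
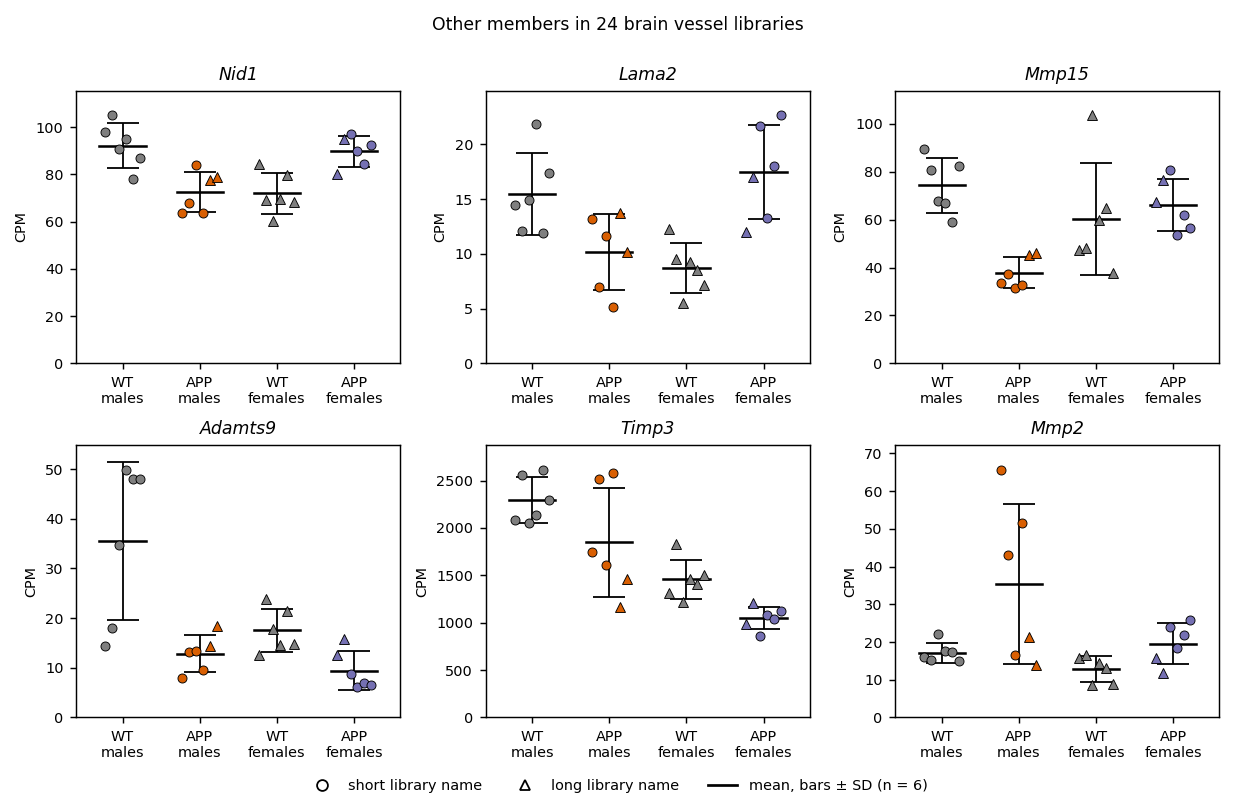
CPM of Nid1, Lama2, Mmp15, Adamts9, Timp3 and Mmp2 in each library, by group, with the mean and SD of 6 mice; circles are short-named and triangles long-named libraries. The APP male means of Nid1, Lama2 and Mmp15 are below the WT male means, the APP female means of Nid1 and Lama2 are above the WT female means, and 3 short-named APP males hold the high Mmp2 values.

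WT female 3 also bore on counts in females. Without it 3 members were higher and 4 lower (Col5a2, Col6a3, Adamts10 and Adamtsl1), against 5 and 0 with it; the 14 members lower with the sexes averaged were all still called. Of those 14, 12 kept their call with any 1 library left out, as did 1 of the 4 higher ones, 19 of the 22 lower in males and 3 of the 5 higher in females.

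The male comparison was repeated within short names, 4 APP against 6 WT. There 25 members were lower (12.8% of all genes) and 8 higher (4.4%), and 20 of the 22 members lower with all males were called again. Against WT males, the 2 long-named APP males gave 4 members lower (1.86% of all genes) and 1 higher (4.45%): Col4a1, Col4a2, Timp3 and Adamtsl4, and Adamts16. In that smaller set 3 of the 22 were called and all 22 kept their sign. Within long names the females, 2 APP against 6 WT, gave no member higher (0.226% of all genes) and none lower (0.0437%) by limma, with 9 and 4 at an unadjusted p under 0.05, and the 5 members higher in all females kept their sign.

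The sex difference of APP minus WT, tested as an interaction, was called for 10 members. That test takes in the difference between WT females, all long-named, and WT males, all short-named. Sex and name style therefore cannot be told apart in that part of it. The sex difference was positive, with the female value above the male one, for 9 (4.94% of all genes) and negative for 1 (2.12% of all genes). The 9 were Col4a3 (1.22), Col4a4 (1.46), Lama2, Lamb1, Nid1, Col9a3 (2.07), Col12a1 (0.89), Loxl1 and Mmp15, and the negative one was Col6a3. Of the 9, 6 had fallen in males and 3 had risen in females, Nid1 being in both sets. For Col4a1 and Col4a2 the sex difference was 0.31 (SE 0.14, adjusted p = 0.18) and 0.35 (SE 0.14, adjusted p = 0.12), so a difference between the sexes was not shown for them. The calls of Lama2, Nid1, Col6a3, Loxl1 and Mmp15 stood with any 1 library left out; that of Col4a3 was lost in 14 of 24 such fits (adjusted p up to 0.081, without APP female 6), that of Col9a3 in 16 (up to 0.082, without APP female 6), that of Col12a1 in 11 (up to 0.069, without WT female 6) and that of Col4a4 in 4 (adjusted p = 0.051 to 0.056, without APP female 6, WT male 4, WT female 5 or WT female 6).

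Between the APP sexes directly, 6 members were higher in females (4.62% of all genes) and 2 lower (1.43%). Over all genes this comparison called 635 higher and 196 lower, and 507 and 293 under TMM scaling. Mmp15 differed by 0.79 (SE 0.17, adjusted p = 0.011), with every APP female above every APP male, and Timp3 by -0.76 (SE 0.15, adjusted p = 0.0073). Loxl1 (0.94), Lama2 (0.76), Nid1 (0.31), Col12a1 (0.59) and Adamtsl2 (0.71) were the other higher members and Adamts14 (-0.71, adjusted p = 0.05) the other lower one. Only the Mmp15 and Timp3 calls of these 8 stood with any 1 library left out; that of Loxl1 was lost without APP male 2 (adjusted p = 0.052). Markers of other cells also differed between the APP sexes: 9 of 9 oligodendrocyte, 4 of 7 neuron, 3 of 12 astrocyte and 3 of 12 pericyte markers were higher in females, with medians of 1.94, 0.97, 0.93 and 0.63. Their part in the members' values was not tested.

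Within APP the library-name style was compared with the sexes averaged, short against long. It gave 5 members higher (3.09% of all genes) and 4 lower (6.65%). Over all genes 425 were higher and 914 lower, and 598 and 548 under TMM scaling. Sparc rose by 0.42 (SE 0.09, adjusted p = 0.0047): all 8 short-named APP libraries, at 1242 CPM or more, were above the 4 long-named ones at 901 to 1229. Of the 9 calls it alone stood with any 1 library left out. Mmp2 (0.92), Lamc3 (0.76), Adamts4 (0.64) and Fn1 (0.43) were the other higher members. Col6a6 (-1.23), Col6a5 (-1.06), Mmp25 (-0.60) and Col20a1 (-0.56) were lower. The collagen IV genes were not called for the style (-0.54 to -0.03).

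Genes that act on or beside the members were counted in lists. Of 21 measured genes for collagen folding and export, 2 were lower (7.32% of all genes) and none higher (4.78% of all genes) with the sexes averaged. P4ha2, a prolyl hydroxylase subunit needed for stable collagen helices, fell by 0.59 (SE 0.07, adjusted p = 2e-05) and Bmp1, which trims procollagen, by 0.21 (adjusted p = 0.016). The collagen chaperone gene Serpinh1 gave -0.21 (adjusted p = 0.094). P4ha2 fell in males (0.72) and in females (0.46, adjusted p = 0.012).

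With the sexes averaged 7.32% of all genes were lower and 4.78% higher. Of 22 measured matrix receptors, 3 were lower and 1 higher in that comparison. Itga3, an integrin subunit for laminin, fell by 0.55 (SE 0.08, adjusted p = 8.6e-05), Itga7, another laminin receptor subunit, by 0.63 (adjusted p = 0.013) and Itga10, a collagen receptor subunit, by 0.59 (adjusted p = 0.016). Sdc4, a syndecan, rose by 0.36 (adjusted p = 0.036). Among 46 other secreted matrix proteins 7 were lower and none higher, led by Tinagl1, a basement membrane glycoprotein (-0.56, SE 0.06, adjusted p = 3e-06), Fmod (fibromodulin, -0.72) and Ntn4, a laminin-binding netrin (-0.36).

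Of 28 measured other extracellular proteases and inhibitors, 9 were higher (4.78% of all genes) and 3 lower (7.32% of all genes) with the sexes averaged. Hpse (heparanase, which cuts heparan sulfate) rose by 1.46 (SE 0.21, adjusted p = 8.7e-05) and Ctsl, a cathepsin, by 0.58 (adjusted p = 8.7e-05), while Prss23 fell by 0.41. Of 23 genes of transforming growth factor beta and CCN signalling, 3 were higher, among them Tgfb2 (0.64) and Skil (0.37), and 2 lower, among them Tgfb3 (-0.84, adjusted p = 0.0074). Markers of plaque-associated microglia were higher for 14 of 14 measured, and their part in these values was not tested.

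Markers of cells other than endothelium differed between libraries. Counts of called markers stand beside the shares of all genes given above for each comparison. The score of a list below is the mean log2(CPM + 1) of its measured genes, centred on the 24 libraries. Of 12 endothelial markers, 2 were called higher with the sexes averaged (4.78% of all genes) and 2 in males (5.12%), and none lower in either. Their median log2 fold changes were 0.05 and 0.04, and the scores ran from -0.28 to 0.22. Pericyte markers were at -1.04 to -0.59 in the 4 short-named APP males and at -0.42 to 0.69 elsewhere. Their summed level was 280 to 409 CPM in those 4 males, 622 to 922 in the long-named APP males and 569 to 906 in WT males. In males 5 of 12 were called lower. Smooth muscle markers summed to 1151 to 2056 CPM in APP males and 1670 to 3448 in WT males, and to 1162 to 1324 in APP females and 924 to 2210 in WT females, where 924 was WT female 3. With the sexes averaged 10 of 11 were lower.

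Choroid plexus markers summed to 657 to 4844 CPM in APP males and 2919 to 8844 in WT males, and to 1919 to 10076 in APP females and 1046 to 9084 in WT females. In the sex difference 7 of 12 were called positive, and in males 8 of 12 were lower. Fibroblast markers, 12 of 20 measured, were lower for 5 in males and positive for 5 in the sex difference. Astrocyte markers were lower for 9 of 12 in males, with scores of -1.23 to -0.85 in the short-named APP males. Oligodendrocyte markers were positive for 8 of 9 in the sex difference (median 2.29) and higher for 6 of 9 in APP females, and neuron markers for 5 of 7 (median 1.55) and 3 of 7. The summed oligodendrocyte level was 257 to 3127 CPM in APP females and 86.1 to 454 in APP males. The part of these lists in the male falls and the sex differences of the members was not tested.

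**Figure D5:**
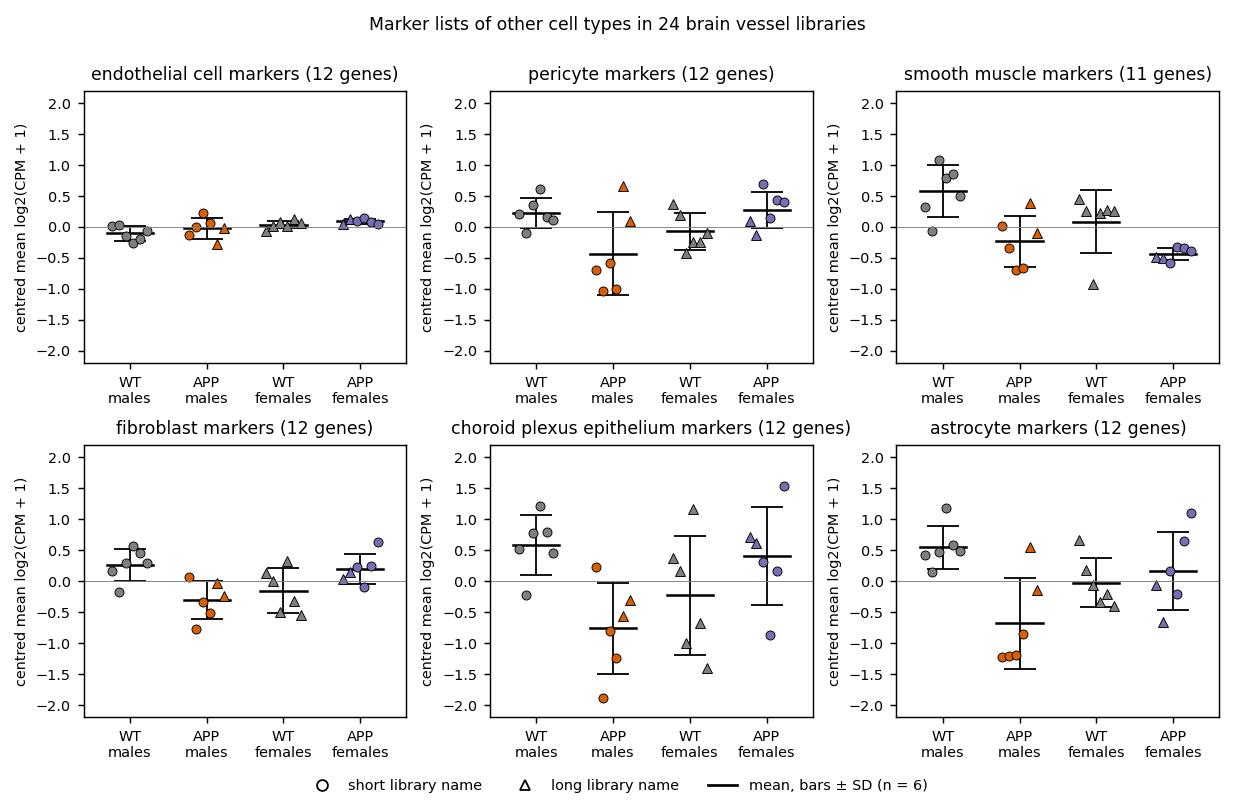
Centred mean log2(CPM + 1) of 6 marker lists in each library, by group, with the mean and SD of 6 mice; circles are short-named and triangles long-named libraries. Endothelial scores lie within 0.3 of 0 in every library, the 4 short-named APP males have the lowest pericyte and astrocyte scores, and choroid plexus scores spread from -1.89 to 1.53.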

How the data were processed

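Messenger RNA libraries were made with a TruSeq kit from 200 ng of RNA and sequenced on an Illumina instrument, per the labels' protocols. Per the submitters' processing notes the genome was mm10. The aligner, counting tool and strandedness were not given in the sources used here. Overlapping genes may therefore share reads. The authors deposited CPM per gene. All values (100%) were whole multiples of a step per library within 0.01 reads, which gave library totals of 52.39 to 75.93 M reads (median 65.51 M). A count of 0 allows up to 3 reads, 0.0395 to 0.0573 CPM; such limits cover counting error only. Of 15346 table entries, 1598 had no values, and 10 repeats were removed.

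Values were analysed as log2(CPM + 1), with a pseudocount of 1 and no further filter, which understates changes of low genes. Intervals of 95% use the residual degrees of freedom alone. Group means were fitted to all 24 libraries with limma 3.58.1 (trend prior) in R 4.3.3, with Benjamini-Hochberg adjustment over 13738 genes; the name-style comparison used group means split by style. P-values set a difference against the spread between libraries within groups, pooled over all groups. In APP that spread includes both name styles, except in the name-style comparison. edgeR 4.0.16 and DESeq2 1.42.0 on recovered reads, TMM scaling, pseudocounts of 0.1 and 5, a 10 CPM filter, a replicate block, name style and leaving out libraries were alternatives. The fit was also run on simulated counts with the same APP change in both sexes and no name-style effect. That run therefore does not cover the split by name style. Gene positions and exon lengths came from GENCODE of the same build and placed all 84 members; promoter windows (250 bases before to 50 after the start) came from RefSeq, for 53 members. Members, roles and lists were chosen with earlier results of these data known. Named members were the basement membrane core, called members by size up to a fixed number, the metalloproteinase inhibitors with Mmp2 and Mmp14, the highest per length in each role, and up to 4 genes of each pathway list by smallest p. Lama3, Col7a1, Col1a2, Col11a2, Col1a1, Adamtsl5 and Mmp11 were named after their values were seen. A gene of the pathway lists is counted but not reported by name here.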

Additional observations from a re-analysis of the deposited data

Results flagged for a closer look

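In 60 named members each of the 4 groups of 6 was searched for a library far from the rest of its group, 240 searches in all; chance marks about 1 group in 20, and 13 were found. WT female 3 accounted for 6 of them: Col4a5 at 5.12 CPM, Col4a6 at 2.68, Col5a2 at 29.7, Bgn at 60.03, Timp2 at 150 and Adamtsl1 at 8.25, each the lowest of its group. APP male 2 was low for Col4a3 (2.37 CPM) and high for Col18a1 (258). The others were Lama5 in WT female 5 (1094 CPM, high), Sparc in APP male 6 (958, low), Col5a2 in WT male 3 (56.0, high), Col12a1 in WT female 6 (0.437, low) and Mmp28 in APP male 3 (72.8, high).

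The difference between the sexes in APP minus WT, female minus male on the log2 scale, passed the interaction test for Col4a3 (1.22), Col4a4 (1.46), Lama2 (1.53), Lamb1 (1.35), Nid1 (0.66), Col6a3 (-1.59), Col9a3 (2.07), Col12a1 (0.89), Loxl1 (1.31) and Mmp15 (1.16), by limma with an adjusted p under 0.05. In the WT part of that difference sex and name style cannot be told apart.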

How the results depend on the processing

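Counts are members higher and lower. No called value of a named member changed sign under any alternative run. With the sexes averaged (4 and 14), the higher count was 10 with DESeq2, 1 with a mean of at least 10 CPM (lower 9, fewer genes being tested), 1 with name style as a term, 7 without the long-named APP females, 10 without the long-named APP males (lower 22), 0 without the short-named APP females (lower 5) and 1 without the short-named APP males (lower 6). In males (1 and 22), the higher count was 5 with DESeq2, 3 with TMM, 3 with edgeR, 0 at 10 CPM (lower 11), 5 with name style, 8 within short names and 6 without the long-named APP males, and 4 were lower without the short-named ones. In females (5 and 0) the counts were 8 and 3 with DESeq2, 2 higher at 10 CPM, 0 higher with name style, within long names or without the short-named APP females, 8 and 4 without the long-named ones, and 1 lower with edgeR or a pseudocount of 5. For the sex difference (9 and 1), 4 were higher at 10 CPM, and the lower count was 3 with DESeq2, 2 with TMM, 2 with edgeR and 0 with name style. Between the APP sexes (6 and 2) DESeq2 gave 11 and 6, edgeR 4 lower, and 10 CPM or a pseudocount of 5 gave 1 lower. For name style (5 and 4) DESeq2 gave 8 higher, and edgeR and 10 CPM 2 lower. With name style as a term the averaged calls of Col4a5, Mmp15, Dcn, Mmp2 and Adamts4 were lost. Other causes were not tested. Leaving out 1 library gave 1 to 8 higher and 12 to 19 lower (averaged), 1 to 4 and 19 to 25 (males), 3 to 7 and 0 to 4 (females), 4 to 14 and 1 to 3 (sex difference), 1 to 11 and 1 to 4 (APP sexes), and 2 to 7 and 0 to 5 (name style). Replicate numbers did not pair the mice (0 to 3 of 6 same-numbered correlations above 0.1 in any pair of groups, from -0.34 to 0.34). A replicate block gave 2 higher in males, 3 higher and 2 lower in females, 1 lower between the APP sexes and 1 lower for name style. The fits without the long-named APP mice were added after the data were seen.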
